A study of Mus musculus with 4 samples.

Results

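The genes described here encode proteins of the extracellular matrix in mouse CAD cells: the collagen chains, the laminin chains, the nidogens, the fibulins, the latent TGF-beta binding proteins, fibronectin, SPARC, perlecan (Hspg2) and agrin (Agrn). They were picked out by a rule on gene symbols, which gave 69 of the 24341 rows of the expression table. Of the 69, 22 averaged 1 FPKM or more across all 4 libraries and were compared between groups. The rule was set with earlier results of these data known, so counts over the list are description and the list gets no test. FPKM counts fragments relative to transcript length and to all mapped fragments, so levels of different genes are compared per length. The cells were of the line CAD (Cath.-a-differentiated), a catecholaminergic neuronal line from mouse brain that takes on a neuron-like form without serum. Both groups spent 5 days in serum-free medium. The DMSO group received the solvent for 24 h, and the ACSS2i group received for 24 h, at 20 µM, a small-molecule inhibitor of ACSS2, the enzyme that makes acetyl-CoA from acetate. Polyadenylated RNA was sequenced from 2 libraries in each group. All libraries came from 1 cell line, and the labels do not say whether those of a group were separate cultures, so p-values reflect only how these libraries vary, and that variation may be technical.

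The extracellular matrix is the network of secreted proteins around cells. Laminins, heterotrimers of an alpha, a beta and a gamma chain, and type IV collagen form the sheets of basement membranes, which nidogens, perlecan and agrin link together, while fibronectin and the fibrillar collagens form fibres. Cells hold on to it through integrins and other receptors. Some of the latent TGF-beta binding proteins tether the inactive form of the growth factor TGF-beta to the matrix. In the nervous system, matrix proteins guide axon growth and agrin clusters acetylcholine receptors at the neuromuscular junction.

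Matrix transcripts had lower levels with the inhibitor. The 69 genes summed to 505.1 and 550.5 FPKM in the DMSO libraries and to 214 and 336 FPKM in ACSS2i replicates 1 and 2, a DMSO mean 1.92 times the ACSS2i mean. This sum rests most on abundant genes: Fn1 had group means of 153 and 37.1 FPKM, and Lama4 of 50.9 and 8.59 FPKM (DMSO, ACSS2i). By family the same ratio ran from 1.06 for the fibulins to 4.13 for Fn1, and it was 1.30 for all collagens. Of the 22 compared genes 21 had a negative log2 fold change, against 47.8% of all genes tested, and for 13 each inhibitor library lay below each DMSO library (separated downward), against 18.3% of all 11486 genes tested. In the other direction 0 of the 22 were separated, against 19.0% of all genes. The median log2 fold change, on the log2(FPKM + 1) scale, was -0.75 for the 22 genes and 0.020 for all genes tested. With limma, 0 of the 22 passed an adjusted p of 0.05, as did 0.0261% of all genes, and the smallest adjusted p was 0.319, for Fn1. At an unadjusted p under 0.05 there were 9 lower genes, against 3.67% of all genes tested, and 0 higher genes, against 3.29%. Of the 22 genes, 2 (Col22a1 and Col7a1) passed the filter only through their DMSO values and so had to be lower with the inhibitor. They are among these counts, and without them 19 of 20 were negative, 11 were separated downward and 7 had an unadjusted p under 0.05. In bulk RNA, fewer cells that express a gene and less of its RNA in each cell cannot be told apart.

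**Figure D1:**
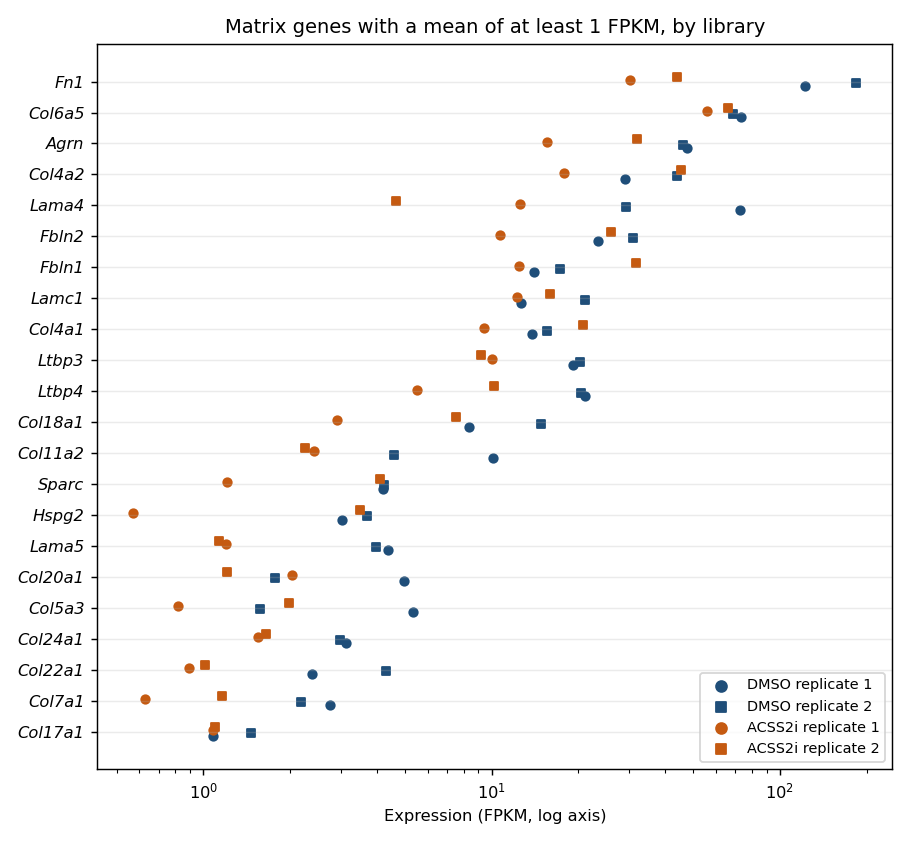
Expression of the 22 matrix genes above the filter of 1 FPKM (horizontal log axis, FPKM), 1 row per gene, ordered by mean. Blue points are the DMSO libraries and orange points the ACSS2i libraries (circles: replicate 1; squares: replicate 2). ACSS2i replicate 1 is the lowest point for 16 of the 22 genes.

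The inhibitor libraries did not share these lower levels equally. ACSS2i replicate 1 held the lowest value of the 4 libraries for 16 of the 22 genes (72.7%), against 28.0% of all genes tested, and ACSS2i replicate 2 held it for 5. Relative to the DMSO mean, the median over the 22 genes was -1.16 in ACSS2i replicate 1 and -0.52 in ACSS2i replicate 2 on the log2 scale, and -0.022 and 0.022 in the DMSO libraries. Without ACSS2i replicate 1 the median log2 fold change was -0.52, with 18 of the 22 negative, 14 separated downward and 3 separated upward. Without ACSS2i replicate 2 the median was -1.16, with 22 of the 22 negative and 20 separated downward. Of all genes tested, 37.0% were separated downward and 39.0% upward in the first case, and 36.8% downward in the second, since a single library is easier to separate.

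Transcript length moved with the difference. The longest annotated transcript had a median of 6284.5 bases for the 22 genes and 3336 bases for all genes tested. Among all 1568 tested genes with a longest transcript of 6000 bases or more, 30.5% were separated downward and the median log2 fold change was -0.13. The 14 matrix genes of that length had a median of -0.84, with 14 negative and 9 separated downward, and the 8 shorter ones had a median of -0.65, with 7 negative and 4 separated downward. After a correction for transcript length the median of the 22 genes was -0.71, with 20 negative, 12 separated downward and 7 at an unadjusted p under 0.05. Of all 11061 genes in that run, 18.04% were separated downward and 3.65% were lower at that threshold.

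**Figure D2:**
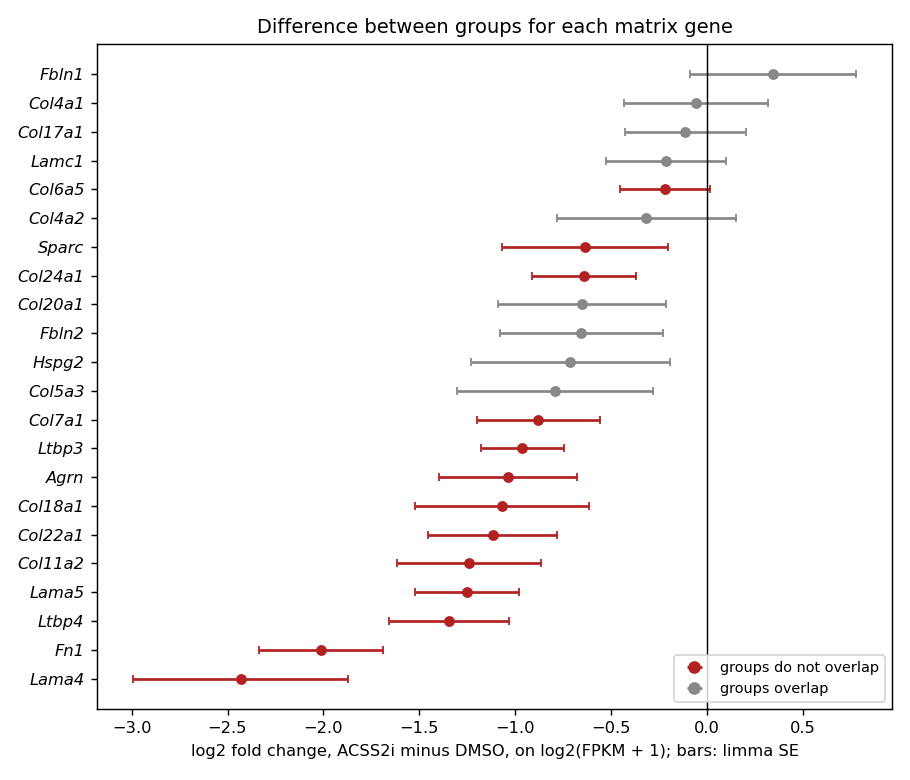
Log2 fold change of the 22 matrix genes, ACSS2i minus DMSO on the log2(FPKM + 1) scale (horizontal axis), with limma standard errors as bars, ordered by size. Dark red marks the 13 genes whose groups do not overlap and grey the others. Fbln1 alone has a positive value, and Lama4 and Fn1 have the lowest.

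Fibronectin stood out by its level. Fn1, the gene of the fibre-forming glycoprotein that integrins bind, lies at chromosome 1, 71585520 to 71653200, on the minus strand of mm10. It was at 122 and 184 FPKM in the DMSO libraries and at 30.1 and 44.0 FPKM in the ACSS2i libraries. Both inhibitor values were under both DMSO values, and Fn1 had the highest mean of the 69 genes, at 95.2 FPKM. The DMSO mean was 153 ± 43.7 FPKM and the ACSS2i mean 37.1 ± 9.85 FPKM (SD, n = 2 each), a ratio of 4.13. The log2 fold change was -2.01 ± 0.32 (SE; limma, unadjusted p = 0.00079, rank 24 of the 11486 genes). Leaving out each library in turn gave -1.72 to -2.31. Fn1 made up 24.2% and 33.5% of the summed matrix FPKM in DMSO and 14.1% and 13.1% in ACSS2i.

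Among the laminins, 3 of the 11 chains were above the filter: Lama4 and Lama5, which encode alpha chains, and Lamc1, the common gamma chain. Lama4, at chromosome 10, 38965515 to 39110188 on the plus strand, encodes an alpha chain found in basement membranes of vessels, muscle and nerve. It was at 72.5 and 29.3 FPKM with solvent alone versus 12.5 and 4.67 FPKM with inhibitor. The groups did not overlap, but the libraries within each group differed by more than 2 times. The log2 fold change of -2.43 ± 0.56 (SE; limma, unadjusted p = 0.00494, adjusted p = 0.484) was the most negative of the 22 genes, and it ran from -1.79 to -3.07 as single libraries were left out.

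Lama5 encodes the alpha chain of many adult basement membranes. It was at 4.37 and 3.96 FPKM with solvent alone versus 1.20 and 1.13 FPKM with inhibitor, so the libraries of each group lay close together and the groups far apart. Its log2 fold change was -1.25 ± 0.27 (SE; limma, unadjusted p = 0.0036, adjusted p = 0.458). Lamc1, in contrast, was at 12.6 and 21.2 FPKM with solvent alone versus 12.2 and 16.0 FPKM with inhibitor, with overlapping groups and a log2 fold change of -0.21 ± 0.31 (SE). The level of Lama4 over that of Lamc1 was 5.74 and 1.39 in DMSO and 1.02 and 0.293 in ACSS2i.

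The beta chains, which a laminin trimer needs, were all under 0.3 FPKM in every library, with 0.01 FPKM the lowest listed value (the floor). Lamb1, Lamb2 and Lamb3 together summed to 0.156 and 0.271 FPKM in DMSO and to 0.139 and 0.0607 FPKM in ACSS2i. The alpha chains summed to 76.9 and 33.3 FPKM in DMSO and to 13.7 and 5.84 FPKM in ACSS2i, and the gamma chains to 13.0 and 22.1 and to 13.6 and 16.6 FPKM. Lamb2 was at 0.132, 0.251, 0.108 and 0.0341 FPKM (DMSO 1, DMSO 2, ACSS2i 1, ACSS2i 2). A floor value does not by itself show absence. Of 140 genes with names of ribosomal proteins, proteasome, RNA polymerase II and splicing subunits and the like, 5 were at the floor in at least 1 library: Psma8, Psmb11, Rpl10l, Rpl3l and Rps4l. These genes were picked by name and not matched to the laminin chains in level or length. Whether CAD cells use the 5 was not checked. The count therefore shows neither why a chain is low nor whether a floor value means absence.

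**Figure D3:**
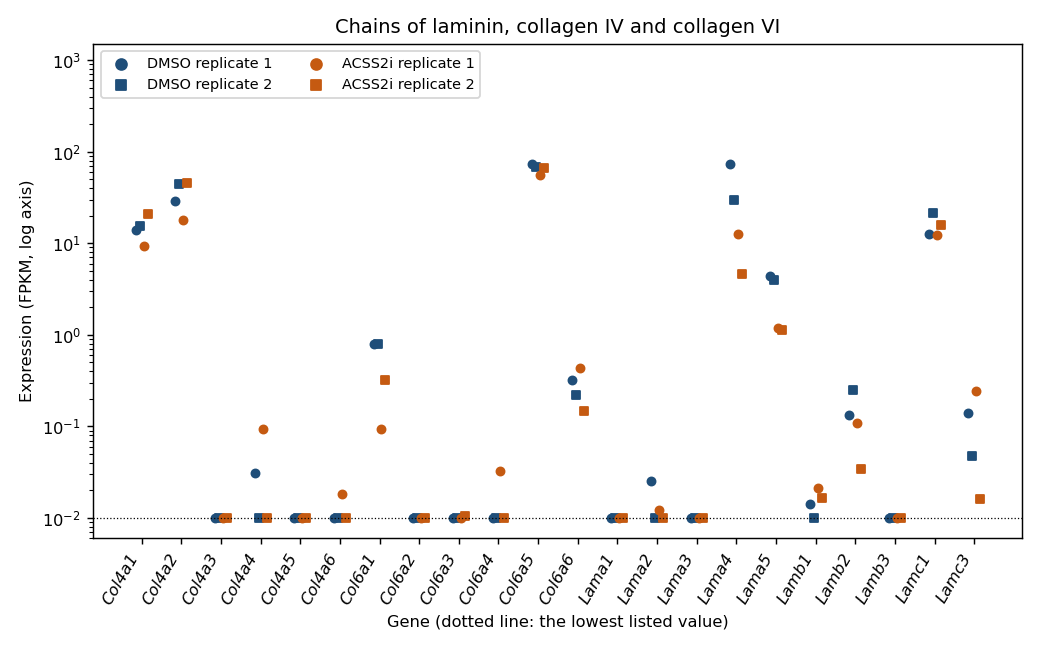
Expression of chains of collagen IV, collagen VI and laminin (vertical log axis, FPKM) in the 4 libraries, with DMSO in blue and ACSS2i in orange. The dotted line is the lowest listed value, 0.01 FPKM. Col4a1, Col4a2, Col6a5, Lama4, Lama5 and Lamc1 stand above 1 FPKM in every library, and the laminin beta chains stay under 0.3 FPKM.

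Type IV collagen, the network-forming collagen of basement membranes, was represented by its most widespread pair of chains. Col4a1 was at 13.9 and 15.5 FPKM with solvent alone versus 9.44 and 20.7 FPKM with inhibitor, and Col4a2 at 29.1 and 44.1 FPKM with solvent alone versus 17.8 and 45.4 FPKM with inhibitor. Both genes had their lowest value in ACSS2i replicate 1 and their highest in ACSS2i replicate 2, so their groups overlapped. The log2 fold changes were -0.058 ± 0.38 for Col4a1 and -0.32 ± 0.47 for Col4a2 (SE), and without ACSS2i replicate 1 they were 0.47 and 0.33. The level of Col4a2 over Col4a1 within a library was 2.10 and 2.84 in DMSO and 1.89 and 2.19 in ACSS2i. The other 4 chains, Col4a3 to Col4a6, had means under 0.04 FPKM.

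The genes Col4a1 and Col4a2 lie head to head on chromosome 8. By RefSeq (GRCm38.p6), Col4a2 starts at 11312805 on the plus strand and Col4a1 at 11312826 on the minus strand, so that their first exons overlap by 22 bases. Both genes had the same order of levels over the libraries, but this order is not particular to the pair, since Fbln1 had it too. Reads from the overlap of their exons cannot be assigned to either gene without strand.

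Among the fibrillar collagens 3 of 11 genes passed the filter, all at low levels. Col11a2, a chain of collagen XI, was at 10.1 and 4.58 FPKM with solvent alone versus 2.41 and 2.24 FPKM with inhibitor (log2 fold change -1.24 ± 0.38, SE; limma, unadjusted p = 0.0163). Its DMSO libraries differed by more than 2 times, and the groups did not overlap. Col24a1 was at 3.12 and 2.98 FPKM with solvent alone versus 1.54 and 1.65 FPKM with inhibitor, with close replicates and a log2 fold change of -0.64 ± 0.27 (SE; limma, unadjusted p = 0.0563). Col5a3 overlapped between groups, at 5.33 and 1.57 FPKM with solvent alone versus 0.819 and 1.98 FPKM with inhibitor. The chains of collagens I and III, the main fibrillar collagens of connective tissue, were at or near the floor: Col1a2 and Col3a1 were listed at the floor in all 4 libraries, and Col1a1 had a mean of 0.0304 FPKM.

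Col6a5 was the most abundant collagen transcript. It encodes a chain of type VI collagen, a beaded-filament collagen, and lies at chromosome 9, 105856078 to 105960643 on the minus strand. It was at 73.3 and 68.5 FPKM with solvent alone versus 55.9 and 65.9 FPKM with inhibitor, 41.2% to 56.5% of the summed collagen FPKM of each library. The groups did not overlap, but the difference was small: log2 fold change -0.22 ± 0.24 (SE; limma, unadjusted p = 0.386). Other chains of collagen VI were far lower, with Col6a2 at the floor in all 4 libraries, Col6a3 at a mean of 0.0101 FPKM and Col6a1 at 0.799, 0.794, 0.0935 and 0.319 FPKM. The neighbouring genes Col6a4 and Col6a6 had means of 0.0156 and 0.281 FPKM. In GENCODE M21 0 other genes have exons that overlap those of Col6a5, and where in the gene its reads lay was not analysed here.

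Of the other collagens, Col18a1, the basement membrane collagen whose end fragment is endostatin, was at 8.32 and 14.8 FPKM with solvent alone versus 2.92 and 7.55 FPKM with inhibitor. All its inhibitor values were lower, and the log2 fold change was -1.07 ± 0.45 (SE; limma, unadjusted p = 0.0561). Col22a1, a fibril-associated collagen, was at 2.38 and 4.32 FPKM with solvent alone versus 0.893 and 1.02 FPKM with inhibitor (log2 fold change -1.12 ± 0.34, SE; limma, unadjusted p = 0.0165). Col7a1, the collagen of anchoring fibrils, was at 2.75 and 2.18 FPKM with solvent alone versus 0.627 and 1.16 FPKM with inhibitor (log2 fold change -0.88 ± 0.32, SE; limma, unadjusted p = 0.0341). Col22a1 and Col7a1 passed the filter through their DMSO values, since their ACSS2i means were 0.954 and 0.895 FPKM, so they had to be lower in ACSS2i. The fibril-associated Col20a1 and the transmembrane Col17a1 overlapped between groups, with log2 fold changes of -0.65 and -0.11.

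The heparan sulfate proteoglycans of the basement membrane differed in how their libraries lay. Agrn, at chromosome 4, 156165290 to 156197488 on the minus strand, was at 47.7 and 46.0 FPKM with solvent alone versus 15.6 and 31.8 FPKM with inhibitor. Both inhibitor libraries were lower, replicate 1 more so (log2 fold change -1.04 ± 0.36, SE; limma, unadjusted p = 0.028). It was -0.54 without ACSS2i replicate 1 and -1.53 without ACSS2i replicate 2. Hspg2, the gene of perlecan, was at 3.04 and 3.70 FPKM with solvent alone versus 0.572 and 3.49 FPKM with inhibitor. Only ACSS2i replicate 1 was low for Hspg2, and without it the log2 fold change was 0.044, against -0.71 ± 0.52 (SE) with all libraries. Sparc, a secreted calcium-binding protein that binds collagen, was far lower in ACSS2i replicate 1 alone. It was at 4.20 and 4.25 FPKM with solvent alone versus 1.21 and 4.11 FPKM with inhibitor (log2 fold change -0.64 ± 0.43, SE). Unlike Hspg2 it counts among the genes separated downward, since ACSS2i replicate 2 lay just under both DMSO values. Without ACSS2i replicate 1 its log2 fold change was -0.033. The nidogens were below the filter, with means of 0.217 FPKM for Nid1 and 0.0124 FPKM for Nid2.

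Among the latent TGF-beta binding proteins, Ltbp3 and Ltbp4 passed the filter and both had lower values with the inhibitor. Ltbp3, at chromosome 19, 5740904 to 5758532 (plus strand), stood at 19.2 and 20.2 FPKM with solvent alone versus 10.1 and 9.21 FPKM with inhibitor. The libraries of each group lay close together, and the DMSO mean was 2.05 times the ACSS2i mean (log2 fold change -0.96 ± 0.22, SE; limma, unadjusted p = 0.00454, adjusted p = 0.484). Ltbp4, at chromosome 7, 27305136 to 27337692 on the minus strand, was at 21.0 and 20.4 FPKM with solvent alone versus 5.52 and 10.2 FPKM with inhibitor (log2 fold change -1.34 ± 0.31, SE; limma, unadjusted p = 0.0051, adjusted p = 0.484). Its ACSS2i values differed from each other, but both were at most 10.2 FPKM. Ltbp1 was at the floor in all 4 libraries. Ltbp2 was just under the filter, at 0.607 and 0.978 FPKM with solvent alone versus 1.30 and 0.897 FPKM with inhibitor, with overlapping groups.

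With the fold changes already known, the sequences before the starts of Agrn and Ltbp3 were picked as examples that differ in their GC boxes. Each is the 250 bases before the RefSeq start (for Agrn the one farther upstream of its listed starts), GRCm38.p6, at chr4:156197489-156197738 on the minus strand for Agrn and chr19:5740650-5740899 on the plus strand for Ltbp3, with GC boxes (GGGCGG, or CCGCCC on the other strand) and CCAAT boxes (CCAAT, or ATTGG on the other strand) in capitals.
Agrn: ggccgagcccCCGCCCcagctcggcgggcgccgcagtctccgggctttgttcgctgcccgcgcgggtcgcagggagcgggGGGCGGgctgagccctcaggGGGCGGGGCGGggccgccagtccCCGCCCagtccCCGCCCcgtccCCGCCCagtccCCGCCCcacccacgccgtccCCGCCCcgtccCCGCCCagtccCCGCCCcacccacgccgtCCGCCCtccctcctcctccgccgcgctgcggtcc
Ltbp3: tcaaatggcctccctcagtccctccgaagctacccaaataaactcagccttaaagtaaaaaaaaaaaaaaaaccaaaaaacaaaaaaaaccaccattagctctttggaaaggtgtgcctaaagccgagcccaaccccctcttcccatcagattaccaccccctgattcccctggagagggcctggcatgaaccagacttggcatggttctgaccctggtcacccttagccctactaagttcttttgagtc
The Agrn sequence holds 12 GC boxes, some of them overlapping, and 0 CCAAT boxes, and that of Ltbp3 holds 0 of either. Promoter sequences were matched for 18 of the 22 genes. These genes have 23 listed starts. On either strand, the GC box was found before 15 of the 23 starts (12 genes), against 32.7% of 32851 mouse promoters, and the CCAAT box before 7 of the 23 (7 genes), against 33.8%. The E-box CACGTG was found before 2 of the 23 starts, both of Fbln1, against 6.02% of all promoters. The AP-1 site TGAGTCA and the cAMP response element TGACGTCA were found before 0 of the 23, against 4.46% and 1.55%. The 32851 promoters were not limited to genes above the filter, so these shares come from an unlike set. These matches describe the letters of these windows alone, and a link between them and the fold changes was not tested.

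The fibulins did not separate by group. Fbln2, which bridges matrix proteins in basement membranes and elastic fibres, was at 23.4 and 31.0 FPKM with solvent alone versus 10.7 and 26.0 FPKM with inhibitor (log2 fold change -0.66 ± 0.43, SE). Fbln1 was at 14.0 and 17.3 FPKM with solvent alone versus 12.5 and 31.6 FPKM with inhibitor. Its log2 fold change of 0.34 ± 0.43 (SE) was the one positive value among the 22 genes, and it was -0.29 without ACSS2i replicate 2. Within a library, Fbln1 over Fbln2 was 0.596 and 0.556 in DMSO and 1.17 and 1.22 in ACSS2i. Fbln5 and Fbln7 were near the floor.

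The other 47 genes were below the filter. Of these, 14 were listed at 0.01 FPKM in all 4 libraries, 19 more had means under 0.1 FPKM, and the highest single value was 1.32 FPKM, for Col9a3 in DMSO replicate 1. For comparison, 31.4% of all genes of the table were at the floor in every library. Among the genes nearest the filter were Col17a1, Col7a1 and Col22a1 above it, with means of 1.18, 1.68 and 2.15 FPKM, and Ltbp2 and Col9a3 below it, with means of 0.946 and 0.704 FPKM.

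Genes that act around the matrix were examined in lists, whose counts are to be read against all genes tested: 47.8% had a negative log2 fold change, 18.3% were separated downward and 19.0% upward, and 3.67% were lower at an unadjusted p under 0.05. Of 30 receptors of the matrix 16 were above the filter, and 16 of the 16 had a negative log2 fold change, with a median of -0.65, 9 separated downward and 0 upward. At an unadjusted p under 0.05 by limma there were 6, and 0 passed an adjusted p of 0.05. Of the 16, 3 passed the filter only through their DMSO values, Itga2 among them, and so had to be lower. Without these 3, 7 were separated downward and 5 had an unadjusted p under 0.05. The collagen receptor Ddr1 was at 13.8 and 14.9 FPKM with solvent alone versus 6.97 and 6.61 FPKM with inhibitor (log2 fold change -0.98). The heparan sulfate proteoglycan Sdc3 was at 31.8 and 23.0 FPKM with solvent alone versus 15.2 and 12.0 FPKM with inhibitor. The integrin chains Itga3 and Itga2 had log2 fold changes of -1.12 and -2.02, and Itga2 was uneven in DMSO, at 2.25 and 12.7 FPKM against 0.351 and 1.01 FPKM in ACSS2i. Without ACSS2i replicate 1, 10 of the 16 receptors were negative and the median was -0.23. Without DMSO replicate 2 the median was -0.37.

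Among 19 tested genes of collagen folding and processing, 15 were negative, with a median of -0.28, and 6 were separated downward and 1 upward. By limma 3 had an unadjusted p under 0.05, all lower, and 0 an adjusted p under 0.05. Bmp1, the protease that cuts procollagen, was at 6.59 and 5.44 FPKM with solvent alone versus 2.25 and 1.66 FPKM with inhibitor (log2 fold change -1.25 ± 0.27, SE; unadjusted p = 0.00363 by limma). Mia3, which loads procollagen into transport vesicles, was at 82.5 and 80.7 FPKM with solvent alone versus 45.3 and 37.4 FPKM with inhibitor (log2 fold change -0.97). The lysyl hydroxylase Plod3 had a log2 fold change of -0.68. Crtap, a cofactor of prolyl 3-hydroxylation, was at 46.9 and 45.5 FPKM with solvent alone versus 17.9 and 42.5 FPKM with inhibitor, so that ACSS2i replicate 1 alone lay far below the rest. Its log2 fold change was -0.72, and -0.12 without that library. The median of this list was -0.11 without ACSS2i replicate 1, and -0.61 without ACSS2i replicate 2.

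In the TGF-beta system, 12 of 15 tested ligands, receptors and SMADs were negative, with a median of -0.13 and 5 separated downward. Without ACSS2i replicate 1 the median was -0.55, with 10 negative. Tgfb1, a ligand that some latent TGF-beta binding proteins hold, was at 14.6 and 17.1 FPKM with solvent alone versus 5.23 and 6.22 FPKM with inhibitor. Its groups were well apart, with a log2 fold change of -1.33 ± 0.23 (SE; limma, unadjusted p = 0.00133, adjusted p = 0.365). The receptor gene Tgfbr1 was at 14.3 and 11.7 FPKM with solvent alone versus 6.48 and 8.54 FPKM with inhibitor (log2 fold change -0.72), and Tgfb3 and Acvr1 had -0.57 and -0.48. Of the targets of TGF-beta and YAP 4 were tested. Tgfbi had a log2 fold change of -0.45 and was separated downward, and Smad7 and Skil had 0.12 and -0.048 with overlapping groups. By limma 2 of the ligands, receptors and SMADs, Tgfb1 and Tgfbr1, and 0 of the targets had an unadjusted p under 0.05.

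Of 12 other matrix proteins tested, 8 were negative, with a median of -0.25 and 5 separated downward. Eln, the gene of elastin, was the only one separated upward, at 0.421 and 0.228 FPKM with solvent alone versus 2.07 and 3.26 FPKM with inhibitor (log2 fold change 1.45 ± 0.34, SE; limma, unadjusted p = 0.00531, adjusted p = 0.484). It passed the filter through its ACSS2i values, so it had to be higher there. The brain proteoglycans Ncan (neurocan) and Bcan (brevican) had log2 fold changes of -1.20 and -0.90, and Ecm1 had -0.89. Ncan, at 0.861 and 0.771 FPKM with the inhibitor, passed the filter only through its DMSO values and so had to be lower. Without ACSS2i replicate 1 the median of the list was 0.12. Among matrix proteases and their inhibitors, 12 of 15 tested genes were negative, with a median of -0.38 and 6 separated downward, and 1 of them, Mmp24, had an unadjusted p under 0.05 by limma (log2 fold change -0.68). Without ACSS2i replicate 1 the median was -0.18, with 9 negative, and the median ran from -0.44 to -0.18 as single libraries were left out. Of these 15 genes 2 passed the filter only through their DMSO values. Adam10 and Mmp15 had -0.52 and -0.45. The cross-linking enzymes Pxdn and Loxl3, the 2 tested of their list, overlapped between groups, with log2 fold changes of -0.47 and -0.25.

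**Figure D4:**
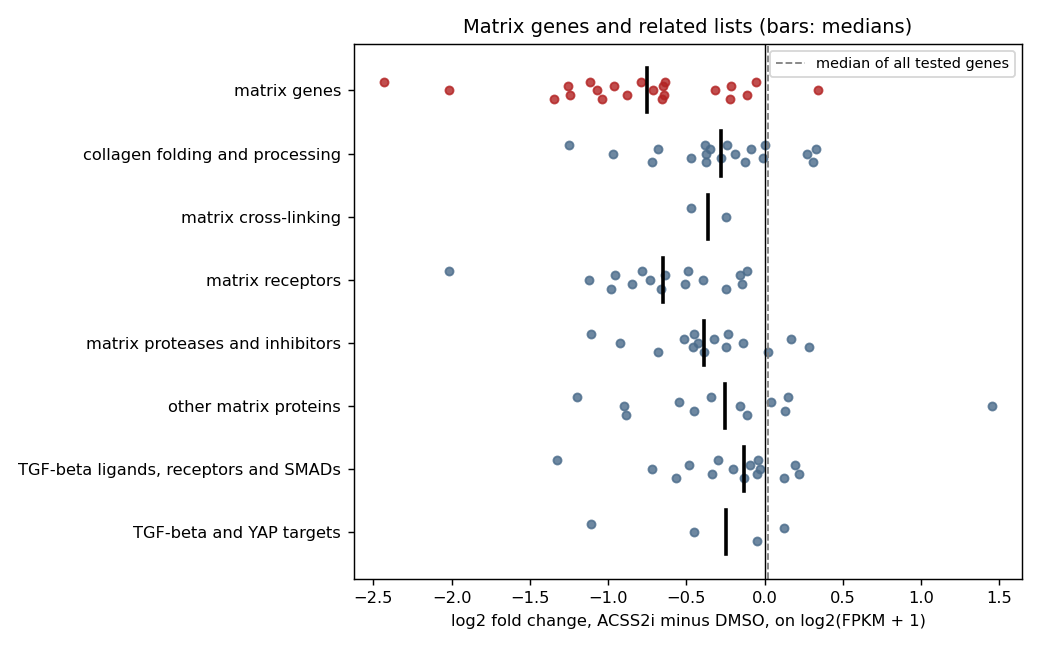
Log2 fold changes, ACSS2i minus DMSO on the log2(FPKM + 1) scale (horizontal axis), of the 22 matrix genes and of the tested genes of 7 related lists, 1 point per gene. Black bars are medians and the dashed line is the median of all genes tested, 0.020. The medians run from -0.75 for the matrix genes to -0.13 for the TGF-beta ligands, receptors and SMADs.

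The label of the cells was set against markers of neurons and of other sources of matrix. Of 15 neuronal and noradrenergic markers 14 had a mean of at least 1 FPKM, among them Hand2, Stmn2 and Snap25, and the exception was Dbh, at a mean of 0.430 FPKM. Their sums in the DMSO libraries were 912 and 1031 FPKM, and those in ACSS2i were 657 and 1384 FPKM. Of 12 markers of fibroblasts and mural cells 1 passed a mean of 1 FPKM, Pdgfrb, at 2.16 and 1.99 FPKM with solvent alone versus 1.24 and 0.498 FPKM with inhibitor. The 12 summed to 3.16 and 3.50 FPKM in DMSO and to 2.13 and 1.43 FPKM in ACSS2i. This sum moved in the same direction as the matrix genes, but Pdgfrb held most of it in DMSO and the members did not all move alike. Acta2 was at 0.067 and 0.01 FPKM with solvent alone versus 0.248 and 0.0782 FPKM with inhibitor. Postn was at 0.01 FPKM in both DMSO libraries versus 0.0402 and 0.0633 FPKM with inhibitor. Of its members, Lum, Fap, Tcf21 and Twist2 were at the floor in all 4 libraries, and the other 8 were above it in at least 1 library. Pdgfra was at 0.299 and 0.427 FPKM with solvent alone versus 0.166 and 0.160 FPKM with inhibitor. Dcn, with a mean of 0.230 FPKM, overlapped between groups, at 0.250 and 0.171 FPKM versus 0.222 and 0.275 FPKM. Dpt had a mean of 0.172 FPKM. The part of the list in the matrix result was not tested. The Schwann cell and glial list summed to 7.20 and 7.20 FPKM in DMSO and to 7.57 and 7.27 FPKM in ACSS2i, with 3 of 10 markers, among them Mbp and Erbb3, at a mean of at least 1 FPKM. The endothelial list (8 markers) and the blood list (8 of 9 with a row) had 0 such genes, with sums of 1.32 to 2.32 FPKM and 0.676 to 1.37 FPKM.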

How the data were processed

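Per the labels, polyadenylated RNA was made into ScriptSeq v2 libraries that shared a NextSeq lane. Tools listed in the submitters' processing notes are STAR 2.3.0, Cufflinks 2.2.1, Cuffdiff and bcl2fastq 02.14.01.07, with the build mm10. For the annotation, strand setting and scaling: not given in the sources used here. Values as deposited were taken as FPKM made by the authors with Cufflinks; the header names no unit, and the table is called adjusted, without saying how. The lowest value is 0.01. Of 24341 rows, Sept7 held a failure mark and was left out.

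Depth was read from the steps between low values: relative depths of 1, 0.292, 0.675 and 0.857 (DMSO 1, DMSO 2, ACSS2i 1, ACSS2i 2), or a nominal 11460000, 3340000, 7740000 and 9820000 reads, under which the 22 compared genes had a nominal 21 (Sparc, ACSS2i 1) to 11668 reads (Fn1, DMSO 1). These are approximate.

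Genes averaging 1 FPKM or more were fitted with limma 3.58.1 (R 4.3.3; mean-variance trend, two-sided) on log2(FPKM + 1), which understates changes of low genes. P-values were adjusted over all 11486 genes by Benjamini-Hochberg. On simulated data the differences from the fit had to match those between the simulated group means. How often the fit called such differences is not given here. With 2 libraries a group, the smallest p an exact permutation test allows is 0.333. Members and lists were chosen with earlier results of these data known. Genes named were all members above the filter (4 values each for a mean of at least 5 FPKM, an unadjusted p under 0.05, or a fixed few) and up to 4 of each list with the smallest p. Coordinates are from GENCODE M21 (GRCm38, the assembly of mm10). Exons of an opposite-strand gene overlap those of Fn1, Ltbp3, Col4a1, Col4a2 and Col22a1, and exons of a same-strand gene those of Col7a1 and Col20a1; reads of overlapping genes may be mixed. A few genes that this rule covers are not reported here.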

Additional observations from a re-analysis of the deposited data

How the results depend on the processing

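Adjusted p under 0.05 was reached by 0 matrix genes under every alternative run (limma throughout), and the smallest adjusted p over the 22 genes ran from 0.0781 (replicate block) to 0.795 (without DMSO replicate 2). The replicate block, which rests only on shared numbers (correlation of same-numbered deviations -0.017), gave 10 lower genes at an unadjusted p under 0.05, the added one being Col18a1 (p = 0.00724). Of all genes tested, 3.39% were such lower genes under the block. The block raised the number of all genes passing the adjusted threshold from 3 to 8. Under the block Mmp24 had an unadjusted p of 0.0508, the proteases and inhibitors had 2 such genes in place of 1, and the TGF-beta and YAP targets 1 in place of 0. It changed no other such call of a gene named here. A pseudocount of 5 gave a median of -0.36, and no filter gave -0.024, where all 69 genes enter, 20 were separated downward and 2 upward. Of all genes without a filter, 11.4% were separated downward and 11.8% upward. With a mean of at least 5 FPKM, 12 genes remained, with 7 separated downward and 5 at an unadjusted p under 0.05. Of all genes at that filter, 17.3% were separated downward and 3.53% were lower at such a p. Leaving out each library gave medians of -1.16 to -0.52, with 14 to 20 genes separated downward and 0 to 3 upward. Of all genes, 29.1% to 37.0% were then separated downward and 31.0% to 39.0% upward. The cause of these ranges was not tested. Such fits assume that a lone library varies like the other group. Quantile normalization, upper-quartile scaling, no trend, and 2 alternatives added after seeing the data (length correction, short RNA genes left out) left these counts within 1.5 times. The sign turned as single libraries were left out for Col17a1 (-0.23 to 0.0080), Col4a1 (-0.59 to 0.47), Lamc1 (-0.57 to 0.14), Col4a2 (-0.97 to 0.33), Hspg2 (-1.47 to 0.044), Loxl3 (-0.55 to 0.054), Pxdn (-1.24 to 0.29), Skil (-0.14 to 0.040), Fbln1 (-0.29 to 0.98) and Smad7 (-0.082 to 0.32), and for the medians of the cross-linking enzymes (-0.89 to 0.17) and of the other matrix proteins (-0.54 to 0.12). The value was positive without DMSO replicate 2 for Col17a1, Col4a1 (0.019) and Lamc1, and without ACSS2i replicate 1 for Col4a1, Col4a2, Hspg2, Loxl3, Pxdn, Skil and both medians. Fbln1 and Smad7 were negative without ACSS2i replicate 2. The length correction turned Col4a1 (0.026) and Skil (0.040), and the absence of a filter the cross-linking median (0.0018).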
